A study of Mus musculus with 27 samples.

Results

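Fibroblast growth factor (FGF) signalling and its feedback were followed through 10 named genes of the 25209 in each table: the ligands Fgf4, Fgf8 and Fgf15, the receptor Fgfr2, the feedback inhibitors Spry1, Spry2, Spry4 and Dusp6, and the ETS transcription factors Etv4 and Etv5. The genes were picked by name, with earlier results of these data known. All 10 were listed in each of the 8 tables, which compare the Zfp512b knockout (KO) clones KO4 and KO8 with wild-type (WT) cells at 4 stages.

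An FGF ligand binds a receptor tyrosine kinase such as Fgfr2, which signals through RAS, RAF and MEK to the kinase ERK. ERK activity induces genes that dampen the pathway again, among them the Sprouty proteins, which act between receptor and RAF, and Dusp6, a phosphatase that removes the activating phosphates from ERK. Etv4 and Etv5 are ETS-family transcription factors that are induced by FGF signals and often serve as readouts of them. In mouse embryonic stem cells Fgf4 is the main autocrine ligand that drives ERK, and MEK inhibition holds the cells in the naive state.

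All cells were of V6.5, a mouse embryonic stem cell (mESC) line. Total RNA was extracted, and all 27 libraries were sequenced as mRNA-seq. WT, KO4 and KO8 had 3 libraries each as naive cells (day 0), kept with LIF, 1 µM of the MEK inhibitor PD0325901 and 3 µM of the GSK3 inhibitor CHIR99021. Each genotype had 2 libraries as primed cells (day 2, serum and LIF without the inhibitors), 2 as cardiomyocytes (CM, day 7.5, formed through embryoid bodies with vitamin C) and 2 as neural progenitor cells (NPC, day 10, formed through embryoid bodies with 5 µM retinoic acid). In the KO clones, CRISPR-Cas9 had inserted a terminator cassette with a selection marker into Zfp512b, which encodes a zinc finger protein. KO4 and KO8 were each a single clone, and no WT cells that had passed through the same editing and selection were included, so the effect of the gene and the history of a clone cannot be told apart.

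The tables list mean normalised counts over the libraries compared, not counts per library. Whole read counts per library were recovered from the decimals of these means. The best set of counts was accepted where it held nearly all of the weight, given how well replicates match. Acceptance held for 19 of the 40 pairs of gene and stage. It held for genes with means up to about 1000 in primed cells, NPCs and CMs and for weaker genes in naive cells, so strongly expressed members have no count per library. For the other 21 pairs only the authors' means are given, with no error. Library totals were about 34.2 to 39.7 megareads in naive cells and 15.1 to 19.3 megareads at the other stages. Replicates spread 0.93 to 1.18 times as much as counting read pairs gives in naive and primed cells, but up to 5.96 times in NPCs and 2.56 times in CMs. Nothing says that libraries of a group came from separate cultures, so p-values measure the spread between these libraries only. Where several sets of counts could give a mean, the match of replicates helped to choose among them. The spread between replicates, and with it the p-values, may then be too small. Zfp512b itself was at 929 and 977 normalised counts in the primed WT libraries, 191 and 219 in KO4, and 154 and 184 in KO8. In CMs it was at 1060 and 1118 in WT, 184 and 209 in KO4, and 155 and 173 in KO8, and its counts were not recovered in naive cells or NPCs. The libraries labelled KO therefore held less Zfp512b RNA than WT wherever this could be seen.

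The labelled cell types were checked with marker lists. CM KO4 libraries stood apart from their label: Nkx2-5, a cardiac transcription factor, was at 1206 ± 150 normalised counts in WT (SD, n = 2), 14.6 ± 4.66 in KO4 and 1369 ± 66.9 in KO8, and Sox1, a neural progenitor marker, was at 35.2 ± 12.9, 3478 ± 67.8 and 130 ± 12.1. Of the 7 cardiomyocyte markers 2 had recovered counts, and their sum was 2235 to 2777 in WT, 23.6 to 37.9 in KO4 and 2202 to 2343 in KO8. Of the other lists tested in CM KO4, all 4 endoderm markers, the 1 smooth muscle marker and the 1 marker of endothelium and blood were lower, and 2 of 3 neuron, 1 of 2 epiblast and 1 of 4 mesoderm markers were higher. Of the 4 neural progenitor markers tested in CMs, all 4 were higher in KO4 and 2 in KO8. Those in KO8 were Sox1 (log2 1.90 ± 0.21, limma adjusted p = 0.000274) and Pax6 (0.61 ± 0.14, limma adjusted p = 0.0103). In CM KO8 all 3 neuron markers and 1 of 2 epiblast markers were lower, 2 of 4 mesoderm markers and that of endothelium and blood were higher, and no endoderm or smooth muscle marker was called. In NPCs, 6 of 7 neural progenitor markers summed to 401 to 576 in WT, 1146 to 1422 in KO4 and 969 to 2340 in KO8, with the KO8 libraries far apart from each other, and Olig2 was under 1 RPM (reads per megaread counted) there. The 3 smooth muscle markers summed to 1186 to 1527 in NPC WT, 361 to 402 in KO4 and 786 to 1084 in KO8, the neuron marker Elavl3 was at 296 to 334, 660 to 798 and 620 to 1511, and 2 of 5 markers of endothelium and blood summed to 297 to 306, 123 to 125 and 483 to 496. The part of these markers in the NPC results, and of the CM markers in the CM results, was not tested. These bulk libraries cannot tell fewer cells of a type from less RNA per cell.

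**Figure D1:**
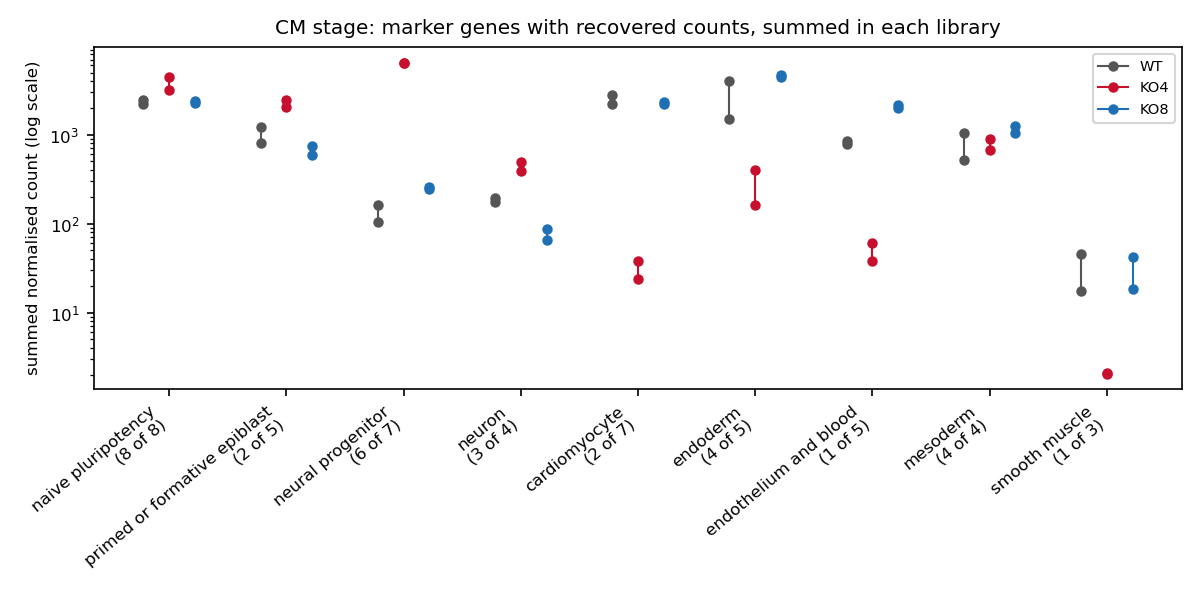
Normalised counts of the marker genes with recovered counts, summed in each CM library, for each marker list (log axis, points are the libraries of WT, KO4 and KO8, numbers in brackets are genes recovered of genes listed). The cardiomyocyte sums lie at 23.6 and 37.9 in KO4 and at 2202 or more in the other groups, and the neural progenitor sums at 6335 and 6470 in KO4 and at 258 or less in the others.

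Positions are given on mm9, the build of the authors' alignment, from GENCODE vM1. Fgf4 (chr7:152047291-152051148, plus strand) and Fgf15 (chr7:152082437-152086858, plus strand) are neighbours, with 31.3 kb between them. Fgf8 is at chr19:45811288-45817405 and Fgfr2 at chr7:137305965-140315033, both on the minus strand. The Fgfr2 span is as annotated, far longer than those of the other members, and was not checked against another annotation, so its far end may not be the start of the gene. Of the feedback inhibitors, Spry1 is at chr3:37538869-37543520 and Dusp6 at chr10:98725865-98730122 on the plus strand, and Spry2 at chr14:106291166-106296036 on the minus strand. Etv4 (chr11:101631056-101646685) and Etv5 (chr16:22381382-22439792) are on the minus strand. Values are sums over the exons of each whole gene.

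Because Etv4 and Etv5 bind sites with a GGAA core, RefSeq promoter windows of 250 bases before a start site (GRCm38.p6) were searched for GGAAGT and CCGGAA on both strands. Spry4 was left out of this search, and no window was found for Fgf8, Fgf15 and Etv4. Of the 6 members with windows, only Etv5 held a match, to GGAAGT, at 1 of its starts. Of 32851 windows of this length in all, 19.7% hold GGAAGT and 12.0% hold CCGGAA. The window with the match and that of Fgf4, the ligand that differed most between the clones below, are shown 5′ to 3′ on the gene's strand (Fgf4 at chr7:144861136-144861385, plus; Etv5 at chr16:22438369-22438618, minus), with the motif in capitals.
Fgf4: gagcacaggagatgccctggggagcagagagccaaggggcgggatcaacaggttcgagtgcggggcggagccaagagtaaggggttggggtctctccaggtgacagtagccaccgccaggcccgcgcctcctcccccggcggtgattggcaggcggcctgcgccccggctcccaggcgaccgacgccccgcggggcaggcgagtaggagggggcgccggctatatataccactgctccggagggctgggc
Etv5: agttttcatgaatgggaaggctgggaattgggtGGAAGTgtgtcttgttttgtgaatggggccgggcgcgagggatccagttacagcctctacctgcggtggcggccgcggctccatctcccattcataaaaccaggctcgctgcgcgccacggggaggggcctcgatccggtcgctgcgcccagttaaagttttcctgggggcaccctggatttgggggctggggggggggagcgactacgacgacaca
These are matches of letters, and binding was not measured.

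In naive cells Fgf4 and Etv5 stood above the other members, and of the feedback inhibitors Spry2 was high and Spry4 near silent. Levels between genes are comparable only per length, and in RPM per kilobase of exon the authors' means gave 148 for Fgf4, 99.5 for Etv5 and 32.4 for Spry2. The other 7 members were at 2.22 or less, down to 0.173 for Spry4 and 0.121 for Fgf8. In primed cells Etv5 (151) and Fgf4 (108) still led, followed by Spry2 (72.2), Spry4 (63.9), Dusp6 (43.8) and Etv4 (37.3). The order was different in NPCs, where Dusp6 (26.6), Spry1 (24.1) and Fgfr2 (15.0) led and Fgf4 (0.962) was next to last. Dusp6 also led in CMs (58.7), before Etv5 (34.5) and Spry2 (33.3), and Fgf4 (2.69) came last. These are means over all genotypes with no spread, so neighbours in the order cannot be said to differ.

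**Figure D2:**
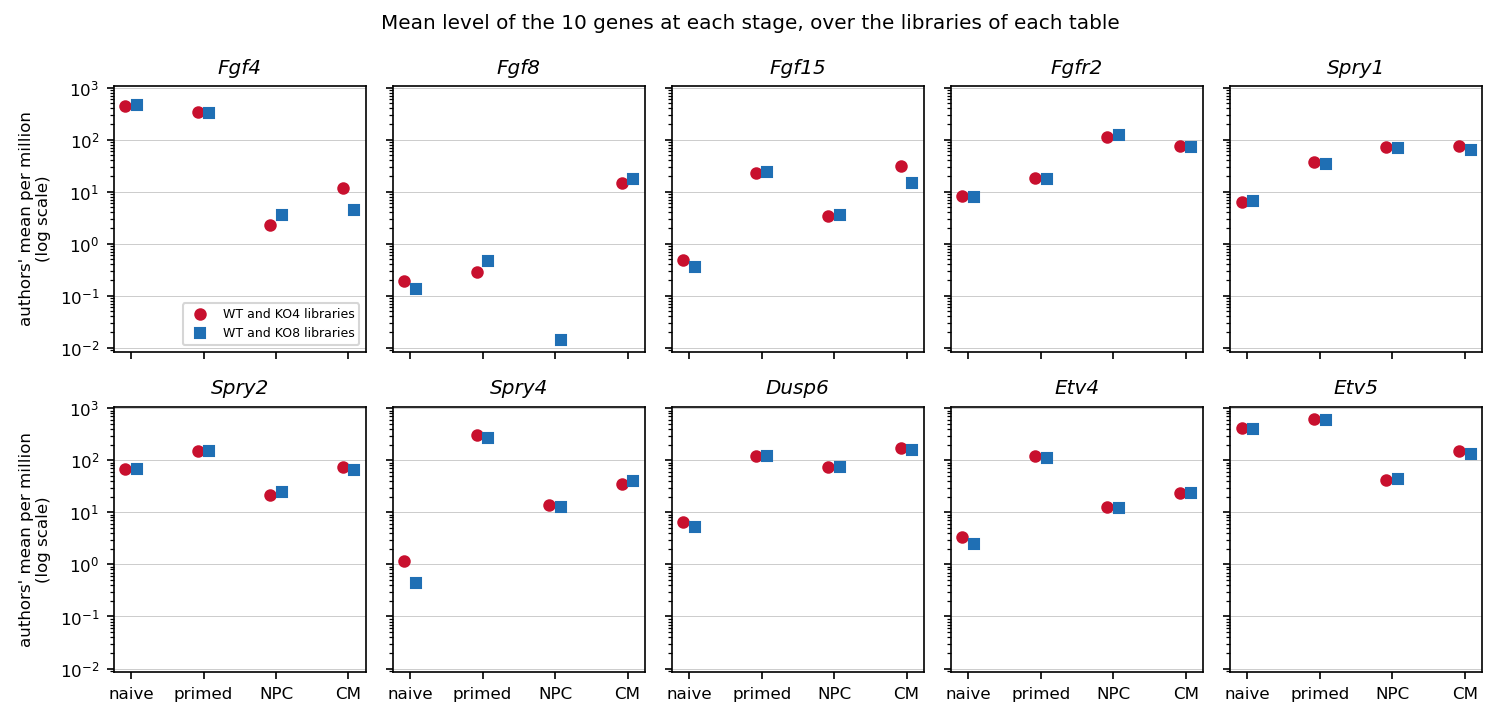
Level of each of the 10 genes at each stage, in the authors' mean RPM on a log axis, with 1 point for the table of WT and KO4 libraries and 1 for that of WT and KO8 libraries. Spry4 goes from 1.16 and 0.432 in naive cells to 313 and 273 in primed cells, and Fgf4 from 434 and 460 in naive cells to 2.33 and 3.50 in NPCs.

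Between naive and primed cells 9 of the 10 genes had a higher mean RPM. The shift was 369-fold for Spry4, 55.3-fold for Fgf15, 39.7-fold for Etv4, 20.7-fold for Dusp6 and 5.49-fold for Spry1. For Fgf8, Spry2, Fgfr2 and Etv5 it was between 1.51-fold and 2.31-fold, and Fgf4 was at 0.732 times its naive level. Spry4, Etv4, Dusp6 and Spry1 thus had lower levels with the MEK inhibitor than without it by larger folds than Spry2 and Etv5, which were already high in naive cells. Stage, medium and library batch cannot be told apart. From primed cells to NPCs, Fgfr2 was 6.62-fold and Spry1 1.97-fold higher, and the other 8 genes were at 0.606 times or less, with Fgf4 at 0.00891 times. From primed cells to CMs, Fgf8 was 42.6-fold, Fgfr2 4.18-fold, Spry1 1.96-fold and Dusp6 1.34-fold higher. Tables of the stages were normalised separately, and these ratios carry no test. The share of all genes that were higher was not computed for RPM. In the WT fit below, over 3574 weaker genes, the median log2 change with library depth as the scale was 0.54 from naive to primed cells. From primed cells it was 2.05 to NPCs and 1.65 to CMs, so a rise alone does not set a member apart.

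Only Fgf15 and Fgf8 had recovered counts at all 4 stages and could be tested across them in WT. A fit over 3574 genes called 45.6% of them between naive and primed cells, 69.2% between primed cells and NPCs and 69.7% between primed cells and CMs. Fgf15 was higher in primed than in naive WT cells by 5.91 ± 0.28 (log2, SE, n = 2 and 3, limma adjusted p = 1.63e-13). The change from primed cells was -4.20 ± 0.31 to NPCs (limma adjusted p = 6.39e-11) and -1.91 ± 0.31 to CMs (limma adjusted p = 8.24e-06). With library depth as the scale these became 6.43, -2.73 and -0.86, since this scaling moved the median of all genes tested to 0.54, 2.05 and 1.65, and the calls stayed. With CPM scaling over the recovered genes the change to CMs was -2.99, so its size depends on the scale. Fgf8 was higher in CMs than in primed cells by 5.03 ± 0.70 (limma adjusted p = 1.20e-06), from 3 and 5 reads in the primed WT libraries to 312 and 335 in the CM ones. Fgf8 reached the mean of 10 that the fit required only through the CM libraries, where it is high, so the filter favoured this call. In the same fit Fgf8 did not pass between naive and primed WT cells (-0.28 ± 0.64, limma adjusted p = 0.762). It was called lower in NPCs than in primed cells (-2.84 ± 0.70, limma adjusted p = 0.00104). That call rests on 3 and 5 reads in primed WT and 0 in each NPC WT library, too few to size the change.

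The KO effects on the members with tested counts were few in primed cells and NPCs and many in CMs. In naive cells 2 members were tested, and both were higher in KO4 and neither was called in KO8, where 13.7% of the 2748 genes tested were called higher in KO4 and 23.1% were called in KO8. In KO8 Fgf15 alone had an unadjusted p under 0.05, and limma voom called neither. In primed cells 3 were tested, of which Fgfr2 was higher in KO4 and Spry1 lower in KO8 (of 9318 genes, 8.44% were called higher in KO4 and 7.07% lower in KO8). In NPCs 6 were tested: none was called in KO4, where 7.42% of 9545 genes were called Etv4 alone had an unadjusted p under 0.05 and limma voom called none, and Etv4 was lower in KO8, where 4.08% of the genes were. In CMs all 5 tested members were called in KO4, 2 higher and 3 lower, but 54.7% of 9560 genes were called there, 23.6% higher and 31.0% lower. In CM KO8 3 members were lower and none higher, where 12.6% of the genes were called lower, and the same 3 were called with WT and KO8 alone in the fit. The median log2 change of the members was 1.77 in naive KO4 against -0.03 for all genes tested, and -0.61 and -0.47 in CM KO4 and KO8 against -0.06 and -0.01. Elsewhere it lay between -0.19 and 0.43, with those of all genes between -0.03 and 0.09.

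**Figure D3:**
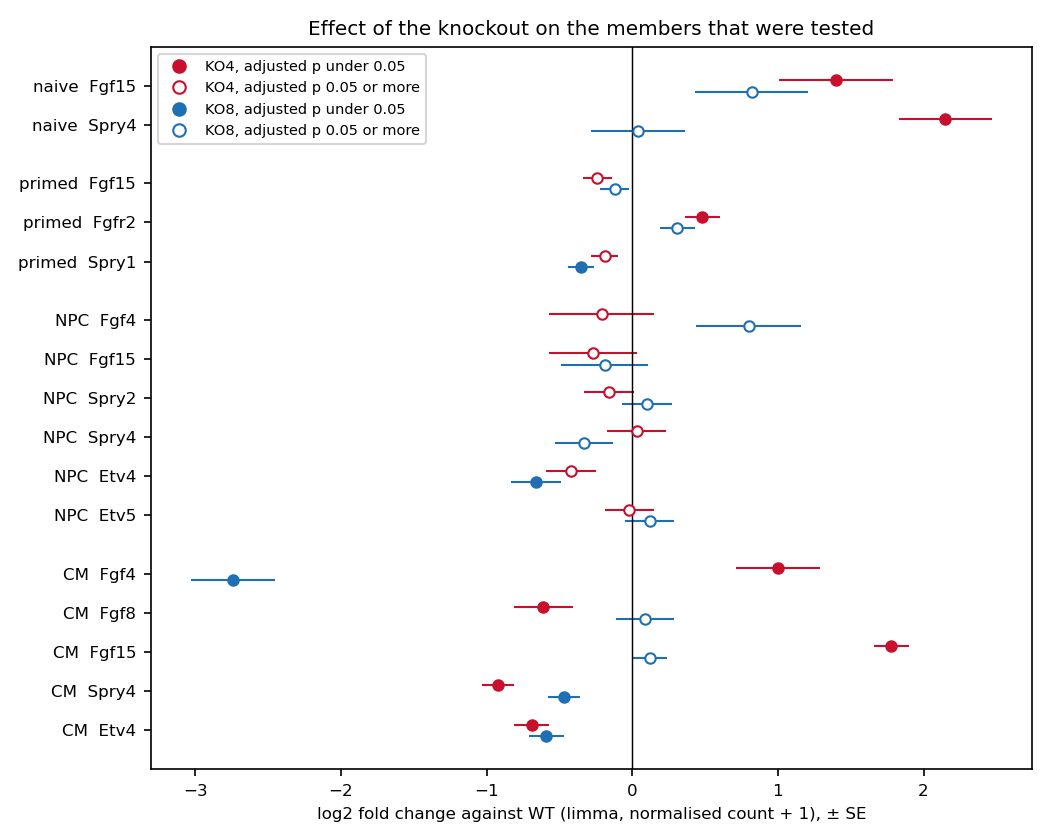
Log2 change of each tested member in KO4 and in KO8 against WT at each stage (limma, log2 of the normalised count + 1, bars are 1 SE, filled points have an adjusted p under 0.05). In CMs Fgf4 lies on opposite sides of 0 in the clones (1.00 and -2.74), and Fgf15 is far from 0 in KO4 only (1.78 against 0.12).

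Fgf4, the main ERK-activating ligand of embryonic stem cells, showed opposite changes in the clones at the CM stage. The WT libraries held 171 and 122 reads, the KO4 libraries 334 and 215, and the KO8 libraries 24 and 17, so the groups did not overlap. Normalised counts were 141 ± 38.7 in WT (SD, n = 2), 284 ± 82.5 in KO4 and 20.0 ± 3.62 in KO8. KO4 was 2.00-fold higher than WT (log2 1.00 ± 0.29 SE, limma adjusted p = 0.0131) and KO8 6.70-fold lower (log2 -2.74 ± 0.29, limma adjusted p = 0.000193). The KO4 call was lost without WT library 2 (log2 0.72, limma adjusted p = 0.113) or KO4 library 1 (log2 0.70, limma adjusted p = 0.118), while that in KO8 held without any 1 library. The clones differed by 3.75 ± 0.29 (limma adjusted p = 2.17e-06), at a stage where 53.7% of genes differed between them. Markers of naive pluripotency also moved, not all in 1 direction. Nanog was at 437 ± 110 normalised counts in CM WT (SD, n = 2), 1311 ± 143 in KO4 and 158 ± 26.3 in KO8, and Zfp42 at 152 ± 33.0, 543 ± 178 and 33.7 ± 4.17. Tbx3 changed the other way (log2 -1.13 ± 0.17 in KO4 and 1.28 ± 0.17 in KO8, limma adjusted p = 0.000264 and 0.000581), and Klf4 was lower in both (-1.45 ± 0.18 and -0.66 ± 0.18, limma adjusted p = 6.79e-05 and 0.0228). All 8 markers of that list had recovered counts and summed to 2187 to 2454 in WT, 3198 to 4412 in KO4 and 2291 to 2389 in KO8, which lies within WT. Of the 8, 4 were higher and 2 lower in KO4, and 1 was higher and 6 lower in KO8. Their part in the Fgf4 result was not tested.

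Fgf4 in NPCs was low, with 34 and 51 reads in WT, 34 and 37 in KO4, and 94 and 65 in KO8. The KO8 libraries were above all others, but the change of 0.80 ± 0.36 did not pass (limma adjusted p = 0.204). Without KO8 library 2 it was 1.11 (limma adjusted p = 0.0491), and the difference between the clones, -1.01 ± 0.36 and not called with it (limma adjusted p = 0.225), passed as well (log2 -1.32, limma adjusted p = 0.0277), at a stage where 1.26% of genes differed between the clones. Of the 8 naive pluripotency markers, 7 had recovered NPC counts and summed to 1159 to 1893 in WT, 1079 to 1182 in KO4 and 1710 to 2856 in KO8. None of them was called in either clone, and their part in the NPC Fgf4 values was not tested. Naive and primed cells gave only the authors' means for Fgf4, at 15680 and 16570 normalised counts in the naive KO4 and KO8 tables and 5761 and 5398 in the primed ones.

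Fgf15, which encodes a secreted FGF known as an ileal hormone and as a gene of the embryonic neural tube, was higher in KO4 in naive cells and CMs. The naive WT libraries held 11, 6 and 11 reads, KO4 40, 19 and 20, and KO8 18, 20 and 12, so both clones lay above WT, whose mean of 9.32 normalised counts was itself under the 10 that the mean of all libraries had to reach. The change was 1.40 ± 0.39 in KO4 (log2, SE, n = 3, limma adjusted p = 0.00565) and 0.82 ± 0.39 in KO8, which did not pass (limma adjusted p = 0.123). Without KO4 library 1 the KO4 change was 1.09 and no longer called (limma adjusted p = 0.0866). The clones did not differ at the threshold (0.58 ± 0.39, limma adjusted p = 0.421). In CMs the WT libraries held 253 and 267 reads, KO4 888 and 773, and KO8 271 and 283. KO4 was 3.45-fold above WT (log2 1.78 ± 0.12, limma adjusted p = 8.02e-07), KO8 was not called (0.12 ± 0.12, limma adjusted p = 0.493), and the clones differed by 1.66 ± 0.12 (limma adjusted p = 1.25e-06). These calls held without any 1 library. The CM KO4 libraries were those with high neural progenitor markers, of which 6 of 7 summed to 104 to 162 in WT, 6335 to 6470 in KO4 and 247 to 258 in KO8, and the part of these markers in the Fgf15 result was not tested.

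At the other stages Fgf15 did not pass in either clone. Primed libraries held 439 and 453 reads in WT, 361 and 359 in KO4, and 333 and 415 in KO8, with changes of -0.24 ± 0.10 (limma adjusted p = 0.105) and -0.12 ± 0.10 (limma adjusted p = 0.496). NPC libraries held 61 and 66 reads in WT, 54 and 50 in KO4, and 69 and 51 in KO8, with changes of -0.27 ± 0.30 and -0.19 ± 0.30. The mean KO effect of the clones was lower in primed than in naive cells (difference -1.30 ± 0.34, limma adjusted p = 0.0340) and higher in CMs than in primed cells by 1.27 ± 0.37 (limma adjusted p = 0.0234), in fits that called 3.61% and 16.0% of 3574 genes. Between primed cells and NPCs the difference did not pass (-0.02 ± 0.37, limma adjusted p = 0.988), where 3.47% were called. The first call was lost with limma voom (-1.37 ± 0.42, limma voom adjusted p = 0.116) and without the filter on low values (limma adjusted p = 0.0715). Without that filter the second was lost too (limma adjusted p = 0.0532). In CMs the clones differed by 1.66 ± 0.12, so the second mean does not describe each clone. The first call was also lost without any 1 of 6 libraries, and the second without any 1 of 3. Without naive WT library 2 the first was -0.98 (limma adjusted p = 0.0894), without naive KO8 library 2 -1.24 (limma adjusted p = 0.0527), without primed WT library 1 or 2 -1.38 and -1.23 (limma adjusted p = 0.0677 and 0.123), without primed KO4 library 2 -1.29 (limma adjusted p = 0.0508) and without primed KO8 library 1 -1.26 (limma adjusted p = 0.0616). The second was 1.19 without primed WT library 2 (limma adjusted p = 0.0856), and 1.24 and 1.29 without CM WT library 1 or 2 (limma adjusted p = 0.0757 and 0.0667).

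Fgf8, a ligand of gastrulation and early brain patterning, was abundant only among the CM libraries. There WT held 312 and 335 reads, KO4 156 and 245, and KO8 339 and 332. Normalised counts were 310 ± 3.51 in WT (SD, n = 2), 209 ± 69.0 in KO4 and 329 ± 15.4 in KO8, with KO4 below the others. The KO4 change was -0.61 ± 0.20 (limma adjusted p = 0.0238) and that of KO8 0.09 ± 0.20 (limma adjusted p = 0.797), and the clones differed by -0.69 ± 0.20 (limma adjusted p = 0.0129). These calls rested on few libraries. The KO4 change was -0.27 without KO4 library 1 (limma adjusted p = 0.200), -0.95 without KO4 library 2 (limma adjusted p = 0.00102), and -0.62 and -0.60 without WT library 1 or 2 (limma adjusted p = 0.0821 and 0.0964). It was not called without the filter on low values either (limma adjusted p = 0.0610). The difference between the clones was -0.35 without KO4 library 1 (limma adjusted p = 0.0995), and -0.74 and -0.65 without KO8 library 1 or 2 (limma adjusted p = 0.0562 and 0.0860).

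The few Fgf8 reads elsewhere were under the mean of 10 normalised counts that a test within a stage required. Naive libraries held 8, 11 and 3 reads in WT, 9, 8 and 3 in KO4, and 5, 0 and 3 in KO8. Primed libraries held 3 and 5 reads in WT, 8 and 4 in KO4, and 14 and 8 in KO8. In NPCs 5 of 6 libraries held 0 reads and 1 KO8 library held 1, and a count of 0 allows up to 3 reads, 0.162 to 0.186 RPM for these libraries, which covers counting error only.

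**Figure D4:**
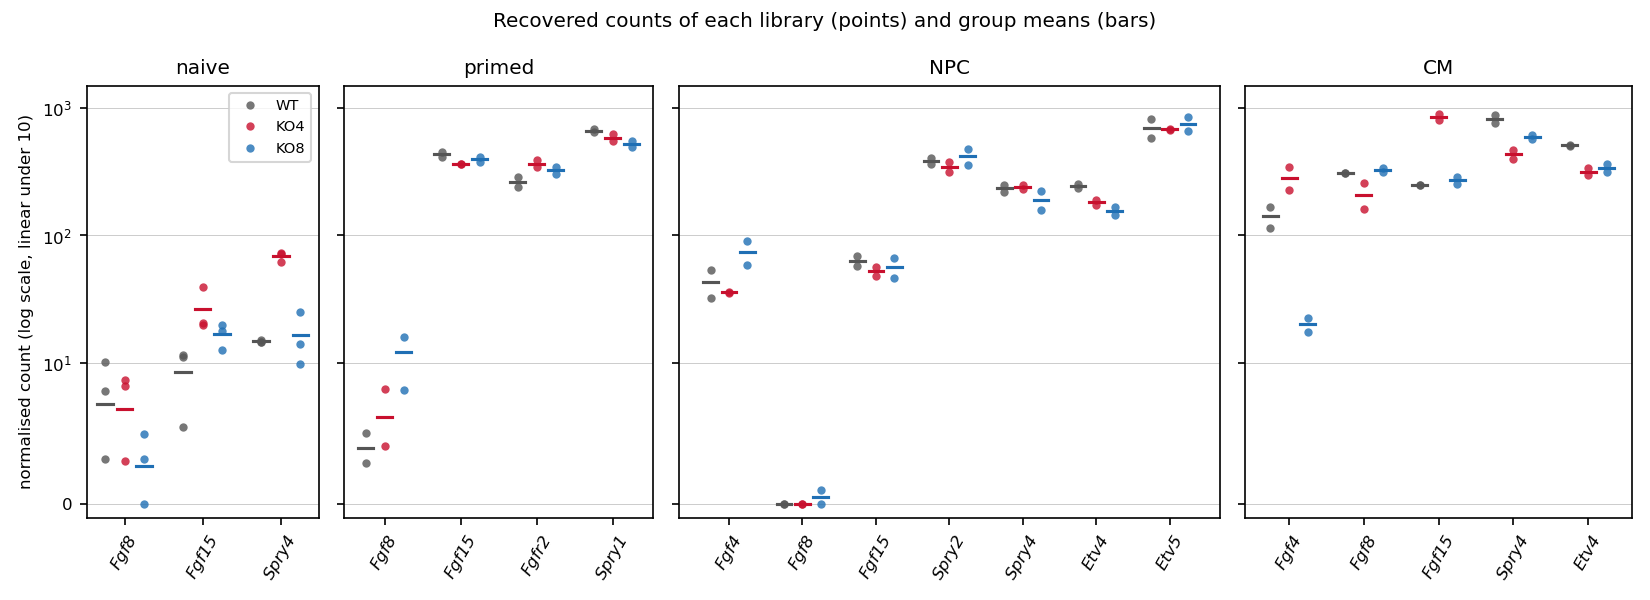
Normalised count of each member in each library (points) and mean of each group (bars) for the pairs of gene and stage with recovered counts, on a log axis that is linear under 10. Naive Spry4 lies at 61.5 to 73.2 in KO4 and at 9.90 to 25.2 in the other groups.

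Fgfr2, a receptor for several FGFs, had recovered counts in primed cells only. The WT libraries held 303 and 240 reads, KO4 337 and 381, and KO8 267 and 346. After normalisation both clones lay above WT, with 264 ± 34.3 in WT (SD, n = 2), 367 ± 33.8 in KO4 and 327 ± 30.9 in KO8. The KO4 change of 0.48 ± 0.12 passed (limma adjusted p = 0.00384) and that of KO8, 0.31 ± 0.12, did not (limma adjusted p = 0.0810). The former was lost without WT library 2 (log2 0.35, limma adjusted p = 0.128), without KO4 library 2 (log2 0.38, limma adjusted p = 0.0720) and without the filter on low values (limma adjusted p = 0.0558), and the latter passed without WT library 1 (log2 0.44, limma adjusted p = 0.0456). Markers of naive pluripotency with recovered primed counts (2 of 8) summed to 1185 to 1198 in WT, 773 to 802 in KO4 and 683 to 801 in KO8, and those of the epiblast (2 of 5) to 1087 to 1169, 721 to 725 and 832 to 876, and their part in the primed results was not tested. For Fgfr2 the clones did not differ at the threshold (0.17 ± 0.12, limma adjusted p = 0.593), where 3.06% of genes did.

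Spry4 (chr18:38745922-38760922, minus strand), a Sprouty inhibitor of receptor signalling, was higher in KO4 than in WT and KO8 in naive cells. The WT libraries held 15, 16 and 14 reads, KO4 63, 69 and 72, and KO8 10, 14 and 24. All KO4 libraries were above all others, and KO8 overlapped with WT. KO4 was 4.43-fold above WT (log2 2.15 ± 0.32, n = 3, limma adjusted p = 4.83e-07), and KO8 was not called (0.04 ± 0.32, limma adjusted p = 0.938). The clones differed by 2.10 ± 0.32 (limma adjusted p = 8.64e-06), at a stage where 1.35% of genes were called higher in KO4 than in KO8. These calls held without any 1 library and at every setting tried. Even so the level was low, with a mean of 1.16 RPM in the naive KO4 table against 313 in the primed KO4 table. Beside it, the neural progenitor markers with recovered naive counts (4 of 7) summed to 2.00 to 8.36 normalised counts in WT, 7.81 to 14.6 in KO4 and 5.25 to 12.9 in KO8, and those of endothelium and blood (4 of 5) to 39.0 to 60.6, 83.4 to 101 and 87.2 to 110. In both lists KO4 and KO8 overlapped, and their part in the Spry4 result was not tested.

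In CMs the direction of Spry4 was the opposite. The WT libraries held 776 and 957 reads, KO4 461 and 383, and KO8 614 and 599, with no overlap between groups. Spry4 was lower than in WT by 0.92 ± 0.11 in KO4 (limma adjusted p = 7.04e-05, log2 -0.92) and by 0.47 ± 0.11 in KO8 (limma adjusted p = 0.0132, log2 -0.47), and the clones differed by -0.45 ± 0.11 (limma adjusted p = 0.00721). The KO8 call was lost without WT library 2 (log2 -0.36, limma adjusted p = 0.0824), KO8 library 1 (log2 -0.43, limma adjusted p = 0.114) or KO8 library 2 (log2 -0.52, limma adjusted p = 0.0613). The difference between the clones was lost without KO4 library 2 (log2 -0.33, limma adjusted p = 0.0659) or KO8 library 2 (log2 -0.40, limma adjusted p = 0.0634). In NPCs Spry4 held 234 and 241 reads in WT, 222 and 258 in KO4, and 234 and 175 in KO8, and neither change passed (0.03 ± 0.20 and -0.33 ± 0.20, limma adjusted p = 0.966 and 0.355).

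Spry1 and Spry2, the other Sprouty genes, each had recovered counts at 1 stage. Primed Spry1 held 686 and 684 reads in WT, 540 and 610 in KO4, and 483 and 493 in KO8. Both clones lay below WT, by 0.35 ± 0.09 in KO8 (log2 -0.35, limma adjusted p = 0.00538) and by 0.19 ± 0.09 in KO4, which did not pass (log2 -0.19, limma adjusted p = 0.149). The KO8 call was lost without WT library 2 (log2 -0.32, limma adjusted p = 0.0812), without KO8 library 2 (log2 -0.27, limma adjusted p = 0.109) and without the filter (limma adjusted p = 0.0678). NPC Spry2 held 432 and 352 reads in WT, 361 and 329 in KO4, and 500 and 401 in KO8, with overlapping groups and changes of -0.16 ± 0.17 and 0.10 ± 0.17 (limma adjusted p = 0.659 and 0.751). The clones differed in Spry2 only without KO8 library 2 (log2 -0.47, limma adjusted p = 0.0497, against -0.27 ± 0.17 with it).

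Etv4 was lower in both clones at the CM stage, and the difference between the clones did not pass. The CM KO4 libraries were those with low cardiomyocyte and high neural progenitor markers. The part of these markers in the CM results of Etv4, Spry4 and Fgf8 was not tested. The CM WT libraries held 512 and 557 reads, KO4 291 and 321, and KO8 338 and 354. Normalised counts were 512 ± 10.6 in WT (SD, n = 2), 318 ± 27.5 in KO4 and 340 ± 32.0 in KO8, and all KO libraries lay below WT. The changes were -0.69 ± 0.12 in KO4 (limma adjusted p = 0.000764) and -0.59 ± 0.12 in KO8 (limma adjusted p = 0.00596), which differed by -0.10 ± 0.12 (limma adjusted p = 0.532). Spry4 was also called lower in both clones, so 2 of 5 members were, where 6.82% of all genes were. The KO8 call of Etv4 was lost without KO8 library 1 (log2 -0.50, limma adjusted p = 0.0698). In NPCs the WT libraries held 250 and 244 reads, KO4 183 and 181, and KO8 173 and 160, again with all KO libraries below WT. Only the KO8 change passed (-0.66 ± 0.17, limma adjusted p = 0.0373), and the KO4 change was -0.42 ± 0.17 (limma adjusted p = 0.194). That call was lost without WT library 1 (log2 -0.71, limma adjusted p = 0.183), WT library 2 (log2 -0.61, limma adjusted p = 0.196), KO4 library 1 or KO4 library 2 (log2 -0.66 in both, limma adjusted p = 0.0865 and 0.0848), and with WT and KO8 alone in the fit (limma adjusted p = 0.0840).

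Etv5 had recovered counts in NPCs only, at 613 and 792 reads in WT, 648 and 717 in KO4, and 895 and 733 in KO8. The groups overlapped, and the changes were -0.02 ± 0.17 and 0.12 ± 0.17 (limma adjusted p = 0.974 and 0.717).

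For the 21 pairs without counts, the KO4 and KO8 tables of a stage were put on the same scale. Both means hold the same WT libraries, so where the KO4 table is higher by some fold, the mean of KO4 is higher than that of KO8 by at least that fold. Neither the direction against WT nor an error can be had in this way. Of the 21 pairs, 8 passed 1.1-fold. In naive cells these were Etv4 with at least 1.37-fold and Dusp6 with at least 1.27-fold more in KO4 than in KO8, where 3.59% of the genes with a mean of at least 100 passed in that direction. Naive Dusp6 had a mean of 239 normalised counts in the KO4 table and 188 in the rescaled KO8 table, and Etv4 had 122 and 88.7. With Spry4, 3 ERK feedback or readout genes were thus higher in naive KO4 than KO8, while Etv5 (1.07), Spry2 (1.01) and Fgfr2 (1.03) stayed under 1.1-fold and Spry1 (1.02) and Fgf4 (1.05) were slightly higher in KO8.

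In primed cells Spry4 and Etv4 were at least 1.15-fold and 1.13-fold higher in KO4, where 3.00% of genes passed, and Fgf4, Spry2, Dusp6 and Etv5 did not pass. In CMs Spry1 was at least 1.21-fold, Etv5 1.15-fold and Spry2 1.14-fold higher in KO4, but 27.3% of all genes passed there, and Dusp6 (1.07) and Fgfr2 (1.04) did not. Of these pairs without counts, NPC Fgfr2 alone was higher in KO8 past that fold, by at least 1.11-fold, where 10.3% of genes passed, while NPC Spry1 (1.07) and Dusp6 (1.02) did not.

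**Figure D5:**
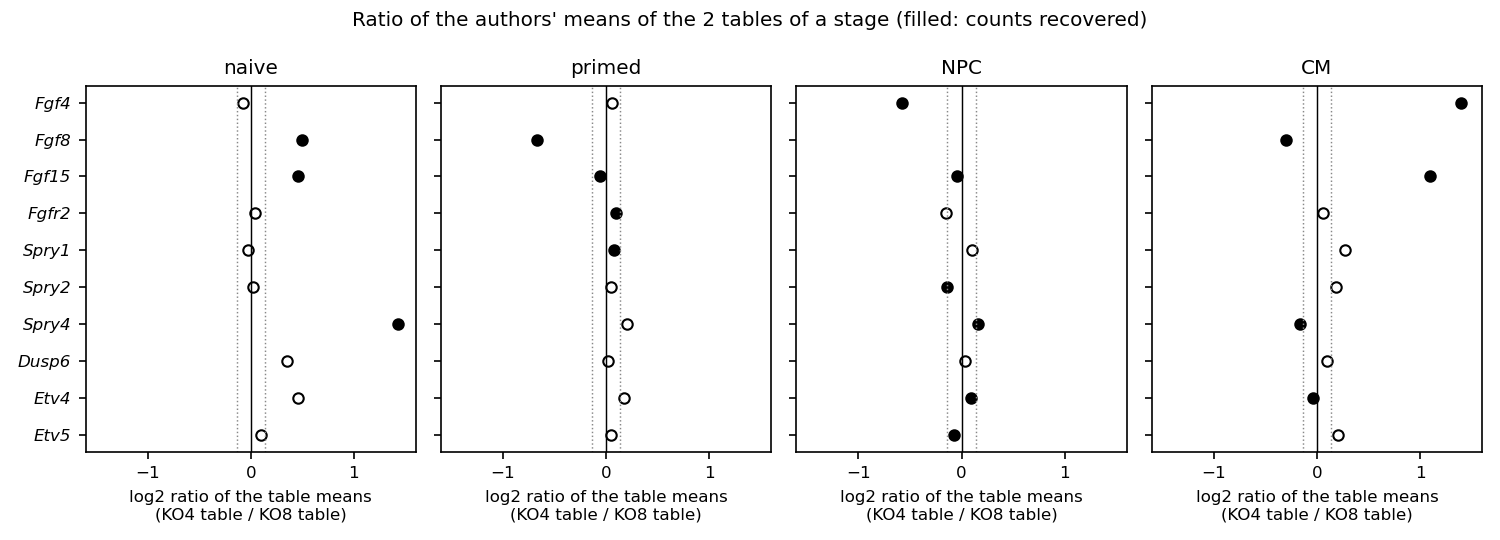
Log2 ratio of the KO4 table mean to the KO8 table mean, rescaled through the shared WT libraries, for each member and stage (filled points have counts per library, open points do not, dotted lines mark 1.1-fold, and NPC Fgf8 is left out because its means are near 0). In naive cells the open points of Dusp6 and Etv4 lie to the right, at ratios of 1.27 and 1.37.

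A further 59 genes of the pathway, from ligands to early ERK response genes, were counted at each stage. In naive cells 7 were tested, of which 2 were higher in KO4 (13.7% of all genes tested were) and 1 in KO8 (15.9% were), and Fgf21, a ligand that acts as a metabolic hormone, was higher in both (1.11 ± 0.40 and 1.34 ± 0.40, limma adjusted p = 0.0335 and 0.0112) with 5, 9 and 10 reads in WT, 22, 14 and 17 in KO4, and 24, 20 and 18 in KO8. Among all genes tested there, 9.50% were higher in both clones. Fgf21 lay at 5.00, 8.19 and 10.45 normalised counts in naive WT, so the KO libraries carried it past the mean of 10 that a test required. In primed cells 28 were tested, with 6 higher and 3 lower in KO4, 7 higher and 2 lower in KO8, 4 higher in both and 1 lower in both. Of all genes tested there, 8.44% were higher and 11.2% lower in KO4, 7.56% and 7.07% in KO8, and 5.05% and 4.67% in both. Dusp4, a nuclear phosphatase of ERK, held 354 and 335 reads in WT, 510 and 500 in KO4, and 454 and 535 in KO8, and rose by 0.62 ± 0.10 and 0.65 ± 0.10 (limma adjusted p = 5.66e-06 and 3.36e-06). Sos2, which loads RAS with GTP, rose by 0.85 ± 0.15 and 0.49 ± 0.15 (limma adjusted p = 4.87e-05 and 0.0220) and Junb, an early response transcription factor, by 0.62 ± 0.08 and 0.54 ± 0.08 (limma adjusted p = 1.04e-07 and 2.49e-06). Ier3, another early response gene, fell by 0.60 ± 0.18 and 0.63 ± 0.18 on the log2 scale (limma adjusted p = 0.0142 and 0.0128). In primed KO8 cells Dusp4 was thus higher and Spry1 lower than in WT.

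In NPCs 24 pathway genes were tested, with 2 lower in KO4 (2.89% of all genes were) and 1 higher and 5 lower in KO8 (7.34% and 4.08% were). Fgf21 was lower in both (-2.79 ± 0.51 and -2.07 ± 0.51, limma adjusted p = 0.0142 and 0.0328), with 53 and 53 reads in WT, 4 and 11 in KO4, and 10 and 16 in KO8, where 1.50% of all genes were lower in both. In normalised counts NPC WT lay at 50.2 and 55.3 and the KO libraries at 4.17 to 14.4, so WT carried Fgf21 past the mean of 10 required. In CMs 18 were tested, with 3 higher and 9 lower in KO4, 4 higher and 4 lower in KO8, and 3 called in opposite directions. Of all genes tested there, 23.6% were higher and 31.0% lower in KO4, 11.1% and 12.6% in KO8, and 5.87% were called in opposite directions. Etv1, the third member of the Etv4 and Etv5 subfamily, was lower in both clones (-0.37 ± 0.14 and -0.72 ± 0.14, limma adjusted p = 0.0470 and 0.00501), with 461 and 387 reads in WT, 303 and 299 in KO4, and 277 and 225 in KO8. The median log2 change over the pathway list in KO4 was 0.06 (naive), 0.18 (primed), -0.28 (NPC) and -0.38 (CM), and in KO8 it was 0.55, 0.14, -0.12 and -0.05, beside medians of all genes tested between -0.06 and 0.09.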

How the data were processed

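Total RNA of V6.5 mESCs and their derivatives was extracted and sequenced as mRNA-seq. The authors trimmed the reads with Trim Galore 0.6.7, aligned them to mm9 with HISAT2 2.2, counted them with featureCounts and compared each clone with WT in DESeq2 1.46.0. Whether strand was used in counting, and how multiply mapped reads were treated, is not given in the sources used here. The 8 deposited tables hold a base mean, which is a signal that the authors computed as the mean normalised count over the libraries compared, and the authors' log2 fold change, standard error, Wald statistic, p-value and adjusted p-value. Those 5 columns of the authors' own comparison were not used.

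Each library adds its count divided by its size factor and by the number of libraries to the base mean, which the tables give to 10 significant digits. Genes with a single read in a single library (at least 20 per library) showed what a read of each library is worth. Whole counts of all libraries were then sought for every gene, and a gene was accepted where 1 set of counts held at least 0.99 of the weight, given how well replicates match. Of the detected genes, 42.2% were recovered in naive cells, 78.9% in primed cells, 75.1% in NPCs and 75.2% in CMs, and the recovered means differed from the deposited ones by at most 0.55 of the last digit. Recovery depends on the level of a gene. WT libraries were shared by both tables of a stage and put KO8 on the scale of the KO4 table. Recovered libraries are numbered arbitrarily, not by the replicate numbers in the labels. The recovery and the test were tested on simulated data.

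Log2 of the normalised count + 1 was tested with limma 3.58.1 (R 4.3.3, trended variance) for recovered genes with a mean of at least 10, in a fit of all 3 genotypes per stage, with Benjamini-Hochberg adjustment over all genes tested and a threshold of 0.05. Each adjusted p in the text comes from these fits, and a log2 change understates that of low genes. Levels in RPM (reads per megaread counted) are the authors' means divided by the approximate library totals. In the fit across stages, libraries were scaled by median ratios over 2012 of 13901 genes recovered at all stages, and scaling by library depth was added after seeing that these genes are weakly expressed. Python 3.11.15 with numpy 2.4.6, pandas 2.3.3, numba 0.67.0, scipy 1.17.1 and matplotlib 3.10.9 was used for the rest.

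The 10 members, the 59 further pathway genes and the 9 marker lists were chosen with earlier results of these data known. All members are named. Of the pathway genes, those that passed in both clones with the same sign are named, at most 4 per stage with the largest change. Fgfr1, Fgfr3 and Fgf5 are named in addition, whatever their result. Alternatives were another pseudocount (5), no filter, CPM scaling, limma voom, fits of 2 groups and leaving out each library.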

Additional observations from a re-analysis of the deposited data

Results flagged for a closer look

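A test of the difference itself separated the clones for 1 of 2 members tested in naive cells and for 4 of 5 in CMs. Of all genes tested, 1.35% were called higher in KO4 than in KO8 in naive cells, and 53.7% differed between the clones in CMs. Naive Spry4 differed between KO4 and KO8 by 2.10 on the log2 scale. In CMs the differences of KO4 from KO8 were 3.75 for Fgf4, 1.66 for Fgf15, -0.69 for Fgf8 and -0.45 for Spry4, of which those of Fgf8 and Spry4 were lost without single libraries, as given with their values above. The mean KO effect of the 2 clones on Fgf15 differed between stages, by -1.30 from naive to primed cells and by 1.27 from primed cells to CMs. Both calls were lost without single libraries and without the filter on low values, and the first also with limma voom. In CMs Fgf15 was called against WT in KO4 only (log2 1.78, against 0.12 in KO8), so the mean does not describe each clone. Groups of 2 or 3 libraries are too small to test for a library that stands apart from its group.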

How the results depend on the processing

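No result for a single member changed its direction past the threshold in any setting. Of 522 values for members without 1 library, 486 kept their side of the threshold, 32 lost a call and 4 gained one, and of 264 values under other settings 257 kept it and 7 lost a call. A group left with 1 library is assumed to vary like the others. Counts of genes called moved more. Without the filter 952 genes were called in primed KO4, 638 in primed KO8, and 37 and 63 between the clones in primed cells and NPCs (1825, 1363, 285 and 120 with it). With limma voom NPC calls were 415 in KO4, 718 in KO8 and 54 between the clones, and with only 2 groups in the fit 1687 in KO4 and 651 in KO8 (708, 1090 and 120 otherwise). KO effects that differed between stages were called for 211 (naive to primed), 292 (primed to NPC) and 876 genes (primed to CM) with a pseudocount of 5, with voom for 44 (naive to primed) and 81 (primed to NPC), and for 188 from primed to NPC with depth as the scale (129, 124 and 572 otherwise).

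Leaving out 1 library gave 99 to 273 genes between the naive clones, 1037 to 1831 in primed KO4, 735 to 1525 in primed KO8 and 134 to 280 between the primed clones. In NPCs it gave 5 to 1677 in KO4, 99 to 2140 in KO8 and 5 to 1436 between the clones, and in CM KO8 953 to 2315 (2261 with all). KO effects between stages ranged from 39 to 143 (primed to NPC) and from 370 to 606 (primed to CM). CPM scaling changed the share of higher calls from 69.0% to 57.2% in naive KO8 and from 20.1% to 34.8% between the naive clones. The cause of these changes was not tested. No paired analysis was possible because the recovered libraries carry no replicate number. Strongly expressed members could not be tested at any setting, and for genes at a few reads the depth limits what can be seen.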

Other observations

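Fgf4 and Fgf15 lie between Fgf3 and Ccnd1 on chromosome 7, with gaps of 16.9 kb from Fgf3 to Fgf4 and 29.0 kb from Fgf15 to Ccnd1. These neighbours were looked at after the values of Fgf4 and Fgf15 were seen. In CMs Fgf3, also a ligand, was at 91.9 ± 21.9 normalised counts in WT (SD, n = 2), 16.1 ± 1.93 in KO4 and 82.1 ± 6.04 in KO8. It was lower in KO4 (log2 -2.43 ± 0.30, limma adjusted p = 6.86e-05), while Fgf4 and Fgf15 were higher there, and the change in KO8 did not pass (-0.14 ± 0.30, limma adjusted p = 0.775). Ccnd1, a cyclin of the G1 phase, had no counts per library, and its mean was at least 1.66-fold higher in CM KO4 than in CM KO8.

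Fgfr3, another FGF receptor, was set down with Fgfr1 and Fgf5 to be named whatever its result. CM libraries held 237 and 366 of its reads in WT, 269 and 248 in KO4, and 1550 and 1173 in KO8. It was higher in KO8 by 2.22 ± 0.17 (limma adjusted p = 3.81e-05), where 11.1% of all genes tested were, and did not pass in KO4 (-0.07 ± 0.17, limma adjusted p = 0.735). Fgf5, a ligand of the primed epiblast, passed against WT in neither clone at any stage with a test, with CM changes of 0.42 ± 0.26 and -0.42 ± 0.26 (limma adjusted p = 0.193 and 0.268). The clones themselves differed in CM Fgf5 by 0.84 ± 0.26 (limma adjusted p = 0.0186), where 53.7% of genes differed between them. Fgfr1 had no counts per library at any stage. Its mean was at least 1.16-fold higher in CM KO4 than in CM KO8, where 27.3% of genes passed 1.1-fold, and it did not pass at the other stages.

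Over the 12 group means, the genes most like Fgf15 were Nhs (Pearson r = 0.974), Epha1 (r = 0.957) and Jph1 (r = 0.956) of 497 genes compared, and those most like Fgf8 were Helz2 (r = 0.959), Pakap (r = 0.953) and Anxa1 (r = 0.946) of 498. These describe the groups, which share their stage and its library scale.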
